A study of Mus musculus with 9 samples.

Results

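The circadian clock genes described here are 10 members of the core clock and its first outputs, Per1, Per2, Per3, Cry1, Cry2, Clock, Bmal1 (listed under its older symbol Arntl), Dbp, Tef and Bhlhe40. They were chosen by name, and every probe set assigned to one of these symbols alone was taken, which gave 17 of the 22690 probe sets and 10 of the 12393 genes on the arrays. The cells were TAMH, a hepatocyte line derived from the liver of mice transgenic for transforming growth factor alpha, with the strain given as C57BL/6. The promoter of the transgene is not given in the sources used here. Confluent cultures received plain control medium, 2 mM APAP (acetaminophen, N-acetyl-para-aminophenol) or 2 mM AMAP (its meta isomer, described in the series title as less hepatotoxic), and were harvested after 2, 6 or 24 h. Each of the 9 combinations of treatment and time was 1 Affymetrix Mouse 430A_2 array, made from 2 dishes, so all groups share the line and its transgene and none has a replicate array.

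In the mammalian clock, CLOCK and BMAL1 pair and bind E-boxes in the DNA, where they activate Per, Cry, Dbp, Tef, Bhlhe40 and Nr1d genes. PER and CRY proteins then repress CLOCK and BMAL1, while REV-ERB proteins (encoded by Nr1d1 and Nr1d2) repress Bmal1 and ROR proteins activate it. DBP and TEF are output factors that bind D-boxes and, in liver, act on genes of drug and lipid metabolism. In cultured cells a change of medium or a hormone pulse can reset this loop through CREB, serum-response and glucocorticoid inputs.

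The values are log2 expression per probe set, on which a difference of 1 is a 2-fold difference. A gene with several probe sets was represented by the probe set with the highest mean, and a gene was counted as measured in a comparison when the higher array reached 5.66, which is the median over the whole table. On the mean over the 9 arrays, 7 of the 10 members were expressed, and Per2 (mean 4.95), Per3 (mean 4.95) and Dbp (mean 3.96) lay below the threshold of 5.67. A bulk culture does not separate fewer cells with a transcript from less of it per cell. Of the hepatocyte markers 10 were on the array and all 10 were expressed, with albumin at a mean of 13.06. Of the other lists, 0 of 5 macrophage, 0 of 5 stellate and 0 of 4 endothelial markers were expressed, and 3 of 4 cholangiocyte markers were (Krt7, Krt19 and Sox9). The summed level of the hepatocyte list ran from 14.58 to 14.84 over the arrays.

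3 of the arrays stood apart from the rest, namely both later APAP cultures (6 and 24 h) and the last AMAP culture (24 h). Their lower quartiles were 3.92, 3.815 and 3.84, against 3.497 to 3.628 on the other 6 arrays. Their middle-to-3′ log2 difference for the dap control transcript was -1.72, -1.58 and -1.94, against -0.60 to -0.44. Over all genes, 27.3% had ranges on these 3 arrays that did not overlap the other 6, with 2627 genes higher and 753 lower. For the clock genes the count was 5 of 10 on the brightest probe sets. Those of Per2, Per3, Dbp and Tef read higher, and that of Clock read lower. Another Tef probe set, 1450184_s_at, also read higher. The dimmest Tef probe set and all other probe sets of Per2, Per3, Dbp and Clock overlapped. Per2, Per3 and Dbp were also below the expression threshold on the mean. Comparisons at 2 h and among the controls use none of these arrays. Whether the state of these arrays had a part in the differences at 6 and 24 h was not tested.

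**Figure D1:**
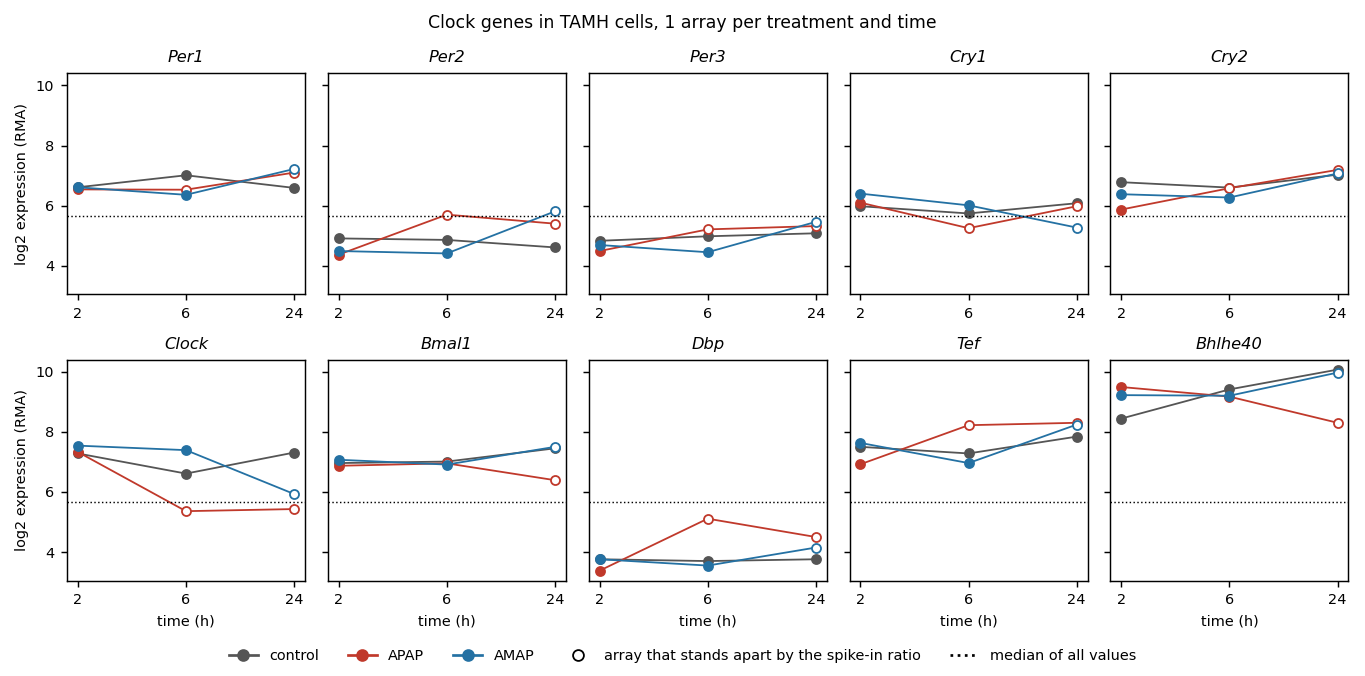
Levels of the 10 clock genes (log2, vertical axes) at 2, 6 and 24 h in control medium, APAP and AMAP, 1 array per point and no error bars, with open points for the 3 arrays that stand apart and a dotted line at the median of the table. Bhlhe40 climbs from 8.44 to 10.07 in control medium and lies at 8.30 in the APAP culture at 24 h, while the brighter Clock probe set lies between 5.36 and 5.93 at its open points.

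Bhlhe40 had the widest course of the members in control medium. It encodes DEC1, a basic helix-loop-helix repressor that competes with CLOCK and BMAL1 at E-boxes, and its mean of 9.25 was the highest among the members' probe sets. In control medium it read 8.44 at 2 h, 9.41 at 6 h and 10.07 at 24 h. In APAP the order was the opposite, with 9.49 at 2 h, 9.17 at 6 h and 8.30 at 24 h. In AMAP it read 9.22, 9.20 and 9.97. The AMAP culture was thus near APAP at 2 h and near control at 24 h.

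The control course of Bhlhe40 spanned 1.63 from 2 to 24 h, a 3.10-fold difference and the 9th largest of 6760 genes measured. It was the 1 member of 7 measured that reached 2-fold there, against 0.873% of all measured genes. From 2 to 6 h it differed by 0.96 and from 6 to 24 h by 0.67. No member of 7 measured reached 2-fold in either of these steps, for which the background was 0.978% and 1.2%. The other members moved less in control medium. Bmal1, the partner of CLOCK, read 6.96, 7.01 and 7.45, and its step of 0.49 from 2 to 24 h was 453rd in size. Tef read 7.50, 7.28 and 7.84. Per1, an early-response repressor of the loop, read 6.61, 7.01 and 6.59, with its highest control value at 6 h. Cry1 and Cry2, the cryptochrome repressors, had their lowest control values at 6 h, 5.74 and 6.60, and their highest at 24 h, 6.08 and 7.03. With 3 times and 1 array at each, no rhythm or phase can be fitted.

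At 2 h, Bhlhe40 was 2.07-fold higher in APAP than in control (log2 difference 1.05, 117th of 6768) and 1.72-fold higher in AMAP (0.78). It was the 1 member of 7 called at 2-fold for APAP, where 2.07% of measured genes were called. For AMAP no member of 7 was called, against 1.81%. The 2 compounds differed for Bhlhe40 by 0.27 at this time. Both differences from control, and the control course from 2 h, rest on the same control array at 8.44, so they are not separate evidence. The summed level of the cholangiocyte markers was 9.27 in control, 10.71 in APAP and 9.74 in AMAP. The control value was its lowest on the 9 arrays and the APAP value its highest. In the same order, Krt7 read 8.75, 10.19 and 9.12, and Krt19 read 6.58, 8.69 and 7.66. Sox9 read 6.24, 6.3 and 6.22, and the dim Epcam 4.12, 4.14 and 4.68, so the list did not move together. The keratins of the hepatocyte list were also higher in APAP than in control, Krt8 at 12.29 against 11.39 and Krt18 at 12.21 against 11.29. The other markers of that list read lower. The part of these markers in the differences at 2 h was not tested.

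Cry2 showed the largest negative difference at 2 h. It read 6.78 in control, 6.38 in AMAP and 5.87 in APAP, and 5.87 was its lowest value on any of the 9 arrays. The APAP difference of -0.91 was 1.88-fold and 189th in size. At 1.5-fold, APAP had Bhlhe40 higher and Cry2 lower of 7 members, with a background of 10.4%, and AMAP had Bhlhe40 higher, with a background of 6.65%. By 6 h Cry2 in APAP was at 6.58 against 6.60 in control, and at 24 h it was at 7.19 against 7.03.

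Tef was the member on which APAP and AMAP lay farthest apart at 2 h. It read 7.50 in control, 6.92 in APAP and 7.63 in AMAP, and the APAP minus AMAP difference of -0.71 was 1.63-fold. Another Tef probe set, 1450184_s_at, gave -0.53 for the same pair, and a dim one gave -0.01. No member of 7 was 2-fold apart between the compounds at 2 h (background 1.77%), and Tef was the 1 member 1.5-fold apart (background 8.15%). On the representative probe sets, 9 of the 10 members read lower in APAP than in AMAP at this time, and Bhlhe40 was the exception. Of all genes, 46.2% read lower. The median difference was -0.21 over the members, against -0.003 for all measured genes. Per2, Per3 and Dbp, which are among the 9, were too dim on both arrays to count as measured. Other probe sets gave 0.03 for Clock, 0.01 for Per2, 0.08 for Dbp, and 0.18 and -0.59 for Per3. The direction of these members therefore depended on the probe set.

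Per1, a period gene that hormone and stress signals can induce, read 6.61 in control, 6.54 in APAP and 6.61 in AMAP at 2 h. At 6 h it was at 7.01 in control, 6.53 in APAP and 6.36 in AMAP. At 24 h both treated cultures were higher, 7.10 in APAP and 7.22 in AMAP against 6.59. The 2 compounds never differed by more than 0.16 for Per1, and no difference from control reached 2-fold.

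**Figure D2:**
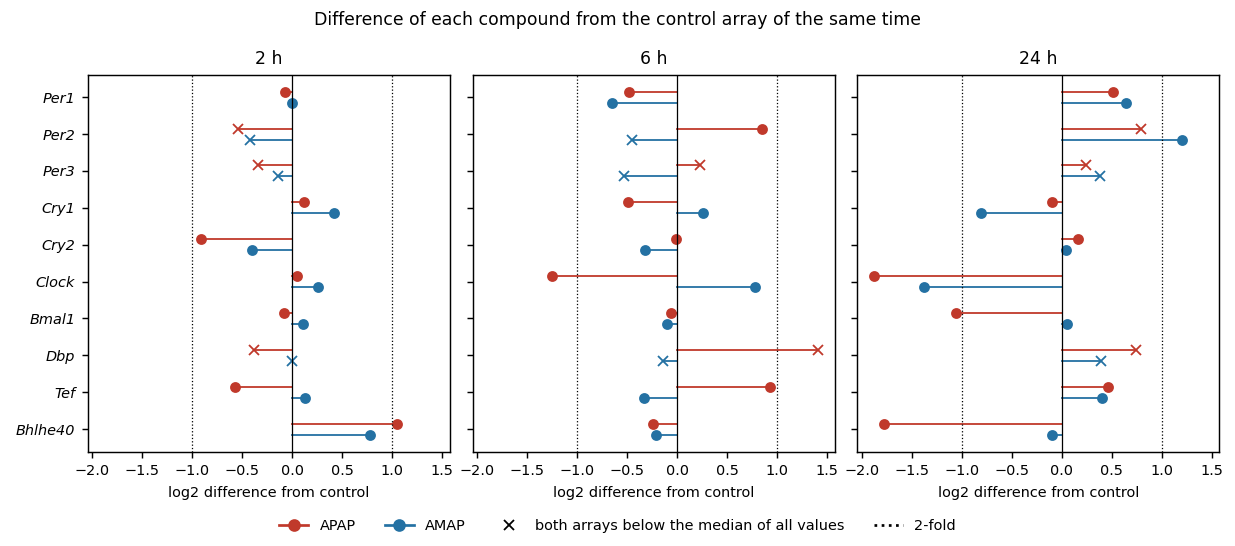
Log2 differences of the 10 clock genes in APAP and in AMAP from the control array of the same time, 1 array against 1 array. At 2 h Bhlhe40 (1.05) and Cry2 (-0.91) lead for APAP, and at 24 h the brighter Clock probe set (-1.88), Bhlhe40 (-1.78) and Bmal1 (-1.06) do.

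At 24 h, Bhlhe40 and Bmal1 separated APAP from both other cultures. Bhlhe40 was at 8.30 in APAP against 10.07 in control and 9.97 in AMAP, differences of -1.78 (3.42-fold) and -1.67 (3.19-fold). Bmal1 was at 6.39 in APAP against 7.45 in control and 7.50 in AMAP, differences of -1.06 (2.08-fold) and -1.11 (2.16-fold). That value of 6.39 was the lowest of Bmal1 on the 9 arrays, and the other 8 lay between 6.87 and 7.50. Both treated arrays at 24 h are among those that stand apart, with dap differences of -1.58 in APAP and -1.94 in AMAP.

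Counted over the list, APAP against control at 24 h had 3 representative probe sets lower of 7 measured, those of Clock, Bmal1 and Bhlhe40, where 7.19% of measured genes were called. With the probe sets of each gene averaged, Clock was not called and the count was 2. AMAP against control at 24 h had Per2 higher and the brighter Clock probe set lower of 8 (background 3.35%). Per2 was measured there only through the AMAP array where it was high (5.81 against 4.61), so its call follows from the filter and supports nothing. APAP against AMAP at 24 h had Bmal1 and Bhlhe40 lower of 8 (background 3.29%). Cry1 differed in AMAP at 24 h by -0.81, from 6.08 to 5.27, and by -0.10 in APAP. The control array is shared by both compounds, so their differences from it are not separate evidence.

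Clock, whose product pairs with BMAL1, gave 2 readings that disagreed. Its brighter probe set, 1418659_at, read 7.28, 6.61 and 7.31 in control, 7.33, 5.36 and 5.43 in APAP, and 7.54, 7.39 and 5.93 in AMAP. Its dimmer one, 1418660_at, read 6.18, 6.02 and 5.81 in control, 5.75, 6.01 and 6.60 in APAP, and 5.72, 5.73 and 6.07 in AMAP. Over the 9 arrays their r was -0.71. At 24 h the APAP difference was -1.88 on the first and 0.79 on the second, and the AMAP difference was -1.38 and 0.26. The 2-fold calls of Clock therefore hold for 1 of its 2 probe sets, and the differences given for Clock elsewhere are those of 1418659_at and not a direction of the gene.

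At 6 h, APAP against control had the brighter Clock probe set lower as the 1 call of 8 measured members (background 6.82%), and AMAP against control had no call of 7 (background 1.31%). APAP against AMAP had Per2 and Tef higher and the brighter Clock probe set lower of 8, where 11.9% of all measured genes were called. Per2 again passed the floor only on the array where it was high (5.70 against 4.41). Tef, which binds D-boxes, was at 8.22 in APAP, 7.28 in control and 6.96 in AMAP. Its second probe set gave 6.53, 5.70 and 5.11, and the r between both was 0.94 over the 9 arrays. Tef lay between 8.22 and 8.30 on the 3 arrays that stand apart and between 6.92 and 7.84 on the other 6.

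Per2, Per3 and Dbp were dim. Per2, a repressor of the loop, read 4.91, 4.86 and 4.61 in control, 4.37, 5.70 and 5.40 in APAP, and 4.49, 4.41 and 5.81 in AMAP. Its 2 calls, 1.30 for APAP against AMAP at 6 h and 1.20 for AMAP against control at 24 h, were -0.13 and -0.19 on its other probe set. Dbp, a D-box factor with a strong daily rhythm in liver, read 3.76, 3.70 and 3.76 in control, 3.38, 5.11 and 4.50 in APAP, and 3.76, 3.55 and 4.15 in AMAP. No Dbp value reached 5.66, so its difference of 1.41 at 6 h in APAP was not called. Per3 stayed between 4.45 and 5.46. Calls at 1.5-fold beyond 2 h were read against a larger background, since all measured genes passed it at 25.2% for APAP and 9.35% for AMAP at 6 h, 17.4% for AMAP at 24 h, 6.41% for control from 2 to 6 h and 9.55% from 6 to 24 h.

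**Figure D3:**
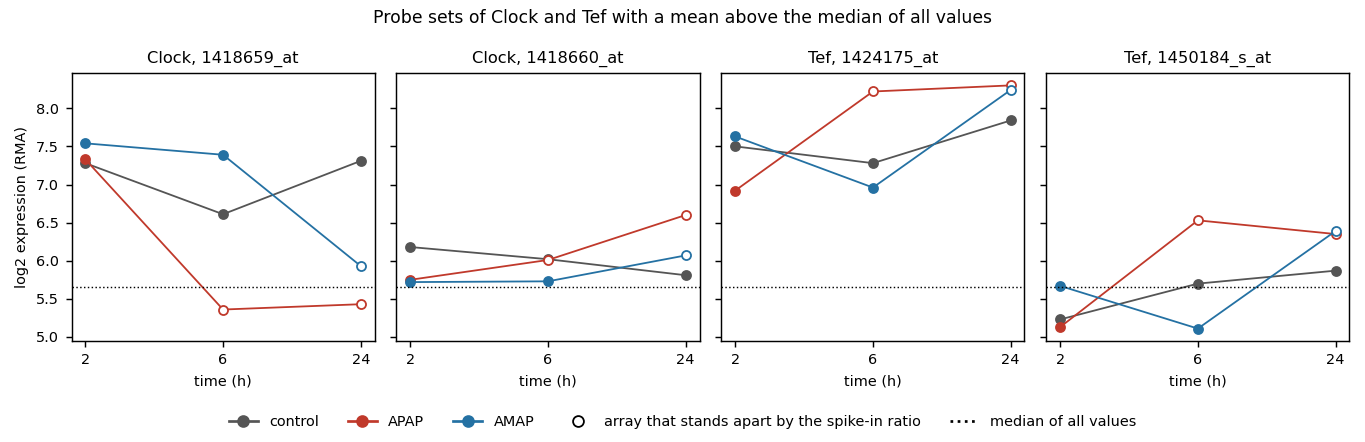
Levels (log2) of the probe sets of Clock and Tef with a mean above the median of all values, on the 9 arrays, 1 point per array. Both brighter Tef probe sets run together (r 0.94), while the Clock probe sets run in opposite directions (r -0.71).

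A limma fit of treatment and time over the 9 arrays asked which differences recurred, with the 3 times serving as the repeats of a treatment and the 3 treatments as those of a time. At an adjusted p under 0.05 (Benjamini-Hochberg) it called 0.0% of 6700 expressed genes in all 6 contrasts. At an unadjusted p under 0.05 it passed 7.67% for APAP against control, 0.448% for AMAP against control and 4.25% for APAP against AMAP. For time it passed 1.7% for 6 against 2 h, 5.52% for 24 against 2 h and 3.07% for 24 against 6 h. Of the 7 expressed members, Cry2 had the smallest p.

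Cry2 read higher at 24 h than at 2 h in all 3 treatments, on average by 0.75 (SE 0.23, 95% interval 0.23 to 1.27, limma unadjusted p = 0.00947, adjusted p = 0.687, 23rd of 6700). It also read higher at 24 h than at 6 h, by 0.61 (SE 0.23, limma adjusted p = 0.999). Tef read higher at 24 h than at 2 h by 0.78 (limma unadjusted p = 0.0427, adjusted p = 0.687). Without the 3 arrays that stand apart the differences between 24 and 2 h were 0.27 for Cry2 and 0.23 for Tef, and without the APAP arrays they were 0.47 and 0.48. Clock gave -1.03 for APAP against control (SE 0.43, limma unadjusted p = 0.0401, adjusted p = 0.633) and -1.16 for 24 against 2 h, and without the 3 arrays that stand apart these became 0.18 and 0.16. None of these passed the adjusted test.

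Between the compounds, no shared difference of a member passed the limma test. For Per1 it was -0.01, and for Cry2 -0.03 with a 95% interval of -0.54 to 0.49. For Bmal1 it was -0.42 with an interval of -0.97 to 0.12, and for Bhlhe40 -0.48 with an interval of -1.47 to 0.52. The largest was -0.91 for the brighter Clock probe set, with an interval of -1.88 to 0.05 (limma unadjusted p = 0.0614, adjusted p = 0.869). The intervals are wide, so the compounds are not shown to act alike.

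**Figure D4:**
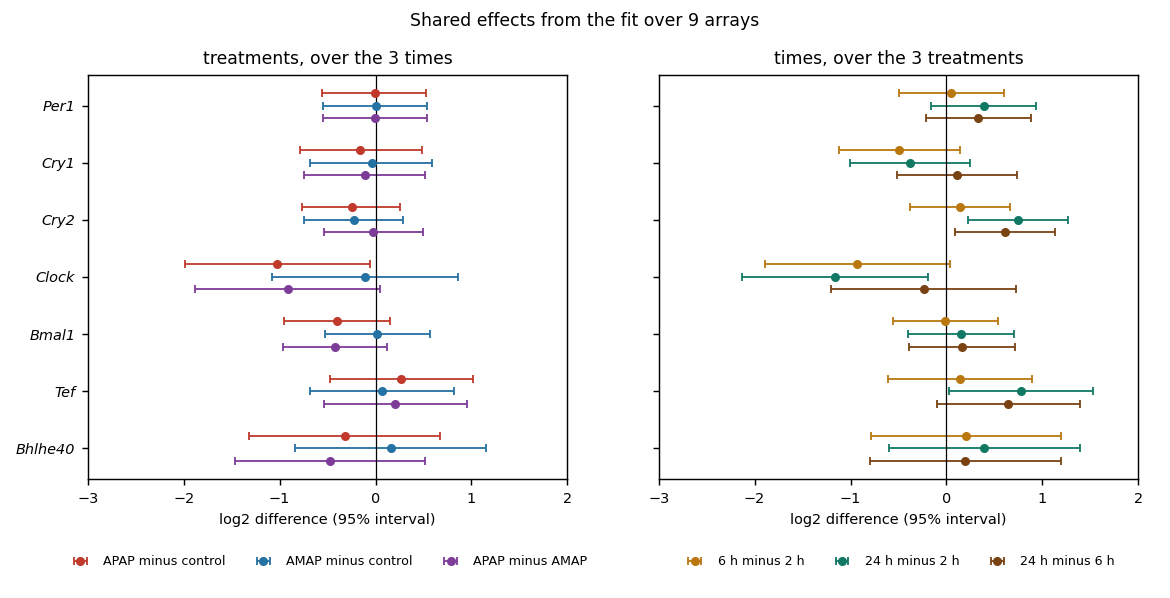
Shared log2 differences with 95% intervals from the limma fit over 9 arrays for the 7 expressed members, treatments on the left and times on the right. Intervals of Cry2 for 24 h against 2 h (0.23 to 1.27) and against 6 h lie above 0, as does that of Tef for 24 h against 2 h (0.03 to 1.53). Those of the brighter Clock probe set lie below 0 for 24 h against 2 h (-2.13 to -0.19) and APAP against control (-1.99 to -0.06). None of these passed the adjusted limma test.

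Because the treatment difference of Bhlhe40 turned over time, a slope of each treatment on log2 time was added to the fit after the data had been seen. For APAP against control the slope was -0.79 per doubling of time (SE 0.16, limma unadjusted p = 0.00105, adjusted p = 0.994). For APAP against AMAP it was -0.55 (SE 0.16, limma unadjusted p = 0.00767, adjusted p = 0.999). For AMAP against control it was -0.23 (SE 0.16, limma adjusted p = 1.0). At an adjusted p under 0.05 the slope called 0.0% of genes, and at an unadjusted p under 0.05 it passed 3.43% for APAP against control and 2.0% for APAP against AMAP. Among the members, Bhlhe40 alone had an unadjusted p under 0.05 for these slopes. Its course had prompted the slope, so this adds no separate support. The slope fit had 2 residual degrees of freedom.

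Some members ran together over the 9 arrays on their representative probe sets. Pearson's r was 0.92 for Per3 with Tef, 0.85 for Per3 with Cry2, 0.80 for Cry2 with Tef and 0.85 for Bmal1 with Bhlhe40. It was -0.91 for Per2 with Clock, which holds for the brighter probe set of each. The 2 probe sets of Per2 had an r of 0.18 with each other, and those of Clock -0.71. These arrays share a cell line and 3 of them stand apart as given above, so the values are descriptions. Among expressed genes with a range of at least 1, those most like Per1 were Mapkbp1 (r 0.929), Nlgn2 (0.927) and Cby1 (0.923). Those most like Bmal1 were Tbl1xr1 (0.944), Psph (0.932) and Nupr1 (0.920). Those most like Per2 were Lmf1 (0.981), Zfp282 (0.978) and Nicn1 (0.974), and those most like Dbp were Kifc2 (0.973), Rad51c (0.972) and Vat1 (0.969).

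Promoters are shown for some of the members that ran together, chosen because they carry different clock elements. Sequences are from RefSeq on GRCm38.p6, which held a window of 250 bases before to 50 after the start for 8 of the 10 members, 13 windows in all. Both strands were searched for the E-box CACGTG, the D-box TTANGTAA, the RORE as TAGGTCA or as TGGGTCA, and the CRE TGACGTCA with its core TGACG, which the full CRE contains. The lines give the 250 bases before the start of Tef (chr15:81802423-81802672, plus strand), Per3 (chr4:151044666-151044915, minus strand) and Cry2 (chr2:92434070-92434319, minus strand), and a site in Bmal1 after the start (chr7:113207531-113207557, plus strand). Capitals mark the E-box in Tef, both D-boxes in Per3, the CRE core on the reverse strand in Cry2 and the RORE in Bmal1.
Tef: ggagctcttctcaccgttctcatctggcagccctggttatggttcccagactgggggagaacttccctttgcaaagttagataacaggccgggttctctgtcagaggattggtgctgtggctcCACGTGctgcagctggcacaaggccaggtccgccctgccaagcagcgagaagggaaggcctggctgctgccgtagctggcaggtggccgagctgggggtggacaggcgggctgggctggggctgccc
Per3: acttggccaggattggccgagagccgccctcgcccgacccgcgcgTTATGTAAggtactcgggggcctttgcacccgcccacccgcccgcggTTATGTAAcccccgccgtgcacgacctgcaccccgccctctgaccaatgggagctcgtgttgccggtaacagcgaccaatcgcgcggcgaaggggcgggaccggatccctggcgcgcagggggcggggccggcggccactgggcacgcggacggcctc
Cry2: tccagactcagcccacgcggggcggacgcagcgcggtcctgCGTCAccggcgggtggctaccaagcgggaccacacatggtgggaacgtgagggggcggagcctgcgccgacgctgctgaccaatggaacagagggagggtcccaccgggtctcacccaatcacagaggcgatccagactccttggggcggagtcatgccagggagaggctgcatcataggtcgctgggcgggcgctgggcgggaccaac
Bmal1: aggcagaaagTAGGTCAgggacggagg

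The E-box was in 4 of the 13 windows, both of Tef and 1 each of Per1 and Cry1, against 7.15% of 32851 windows of all genes. The D-box was in 1 window, that of Per3, against 2.32%. The RORE TAGGTCA was in 1 window, of Bmal1, against 2.61%, and TGGGTCA in none, against 3.98%. The CRE core was in 4 windows, of Per1, Cry1 and Cry2, against 20.8%, and the full CRE in none, against 1.79%. Tef, Per3 and Cry2 were printed because their elements differ, so that difference is not a result about members that ran together. The window of Dbp, whose r with Tef was 0.82, held none of the elements. A match describes the letters in these windows and is not a measured site.

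The RORE factors themselves were read beside Bmal1. Nr1d1, whose product REV-ERB alpha represses Bmal1, had control values of 4.44, 4.53 and 4.67, APAP values of 4.78, 3.71 and 6.28, and AMAP values of 4.80, 4.67 and 5.25. Its highest value, 6.28, was on the array where Bmal1 was lowest (6.39), and its next highest, 5.25, on the array where Bmal1 was highest (7.50). Nr1d2 on its brighter probe set differed by -1.34 in APAP and -1.06 in AMAP at 24 h, and on its other probe set by 0.51 and 0.46. Rora, an activator of Bmal1, differed in APAP by -0.78 at 2 h and -0.74 at 6 h, and a dimmer probe set of it by -0.71 and 0.24. At 24 h, when Bmal1 was low in APAP, the 2 probe sets of Rora differed by -0.14 and -1.03.

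Over the wider list of loop partners, 11 of 17 genes on the array were expressed. On the representative probe sets, none of 11 measured was 2-fold apart from control at 2 or 6 h in either compound. The other probe set of Nr1d2 differed in APAP at 6 h by 1.43 (5.89 against 4.46), and the representative one by -0.67. At 24 h Nr1d1 was higher and the brighter probe set of Nr1d2 and Sfpq (a cofactor of PER complexes) lower in APAP, of 12 measured (background 7.19%), and those of Nr1d2 and Sfpq were lower in AMAP, of 11 (background 3.35%). Nr1d1 was measured only through the APAP array where it was high. The median of the 11 expressed genes at 24 h was 0.04 in APAP and -0.04 in AMAP, against 0.116 and 0.096 over all expressed genes. Nfil3, the repressor that opposes DBP and TEF at D-boxes, differed at 2 h by 0.15 in APAP and 0.48 in AMAP.

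Of 17 clock-controlled liver output genes on the array, 10 were expressed. At 2 h, 2 of 10 were called higher in each compound, where 2.07% of all measured genes were called for APAP and 1.81% for AMAP. Klf10, a Krüppel-like factor, was higher in both, by 1.22 in APAP and 1.54 in AMAP. It was measured there only through the treated arrays where it was high (6.67 and 6.99 against 5.45). Noct, a rhythmic phosphatase, differed by 1.06 in AMAP, which was called, and by 0.98 in APAP, which was not. Ppara, the fatty acid receptor, differed by 1.08 in APAP and by -0.04 in AMAP. At 24 h Klf10 read 5.91 in APAP against 7.50 in control and 7.40 in AMAP, the same order as Bhlhe40. In the control course Klf10 also had its highest value at 24 h, after 5.45 at 2 h and 5.62 at 6 h. Mtss1 differed in APAP at 24 h by -1.05. At 6 h Ppara differed by 1.55 in AMAP and Noct by -1.21 in APAP.

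The input genes of the loop were read next. Of 8 CREB and serum-response genes measured at 2 h, AMAP had 3 called higher, Junb (1.92), Fos (1.69) and Egr1 (1.47). The background was 1.81% of all measured genes. Fos was measured only through the AMAP array where it was high (6.95 against 5.26). Of the 8 genes expressed on the mean of all arrays, which leave out Fos, 6 were above 0 in AMAP, with a median of 0.43 against -0.007 over all expressed genes. APAP had none of 7 called (background 2.07%), and the median of the same 8 expressed genes was -0.12 against -0.014. Creb1, the factor itself, differed at 2 h by 0.90 in AMAP and 0.39 in APAP. At 24 h Fos and Egr1 were higher in both compounds, Fos by 1.35 in APAP and 2.02 in AMAP, and Egr1 by 1.53 and 2.19. Nr4a3 was higher by 1.06 in AMAP. These were the calls of 9 measured genes, against backgrounds of 7.19% for APAP and 3.35% for AMAP. Fos and Nr4a3 were measured there only through treated arrays, with control values of 4.93 and 5.59. Both treated arrays at 24 h are among those that stand apart. At 6 h Egr1 differed by -1.79 in APAP. Per1, which CREB can activate, differed at 2 h by 0.00 in AMAP and -0.07 in APAP.

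Of 13 glucocorticoid-responsive genes measured at 2 h, APAP had Klf15 (-1.21) and Tat (-1.03) lower, and AMAP had Klf15 (-1.62) lower and Dusp1 (1.19) and Mt2 (1.10) higher, against backgrounds of 2.07% and 1.81%. The medians of the list were 0.03 and -0.11, against -0.014 and -0.006 over all measured genes. Later calls were Tsc22d3 at 6 h (1.27) and Sgk1 at 24 h (-1.21), both in APAP. In the limma fit no gene of the 4 lists passed an adjusted p of 0.05 in any contrast. These lists were chosen with earlier results of the data known.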

How the data were processed

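RNA from TAMH cells was measured on 9 arrays, 1 per treatment and time. The deposited values are log2 expression per probe set, made by the authors with Affymetrix Expression Console and its RMA method, as the submitters' processing notes list; a joint normalization of all arrays is not stated there. RMA equalizes intensity distributions, so a change in total RNA does not show, and it compresses differences of dim probe sets. Of 22690 probe sets, 20380 had 1 gene symbol, 691 several and 1555 none, and 64 were controls; probe sets with 1 symbol gave 12393 genes, 4956 of them with several probe sets. The number of arrays limits the precision: a difference of 2 arrays has no p-value, and the fit has 4 residual degrees of freedom and a median residual SD of 0.253. Differences were called at 2-fold. The shared fit used limma 3.58.1 in R 4.3.3 (lmFit, eBayes, treatment plus time) on 6700 expressed genes, and was tested on simulated data. Its p-values treat the interaction of treatment and time as error. Alternatives were other normalizations, filters, thresholds, probe sets and left-out arrays. All 10 members were named, and from each gene list the 3 largest differences at 2 h and every 2-fold call; for likeness, the 3 highest r. The members and lists were chosen with earlier results of these data known.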

Additional observations from a re-analysis of the deposited data

Results flagged for a closer look

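Bhlhe40 differed between APAP and control in opposite directions at different times: 1.05 at 2 h (9.49 against 8.44) and -1.78 at 24 h (8.30 against 10.07), on the log2 scale with 1 array per value. The change of the difference with time was tested after the data were seen, as a slope of -0.79 per doubling of time (limma adjusted p = 0.994 over 6700 genes). The array of APAP at 24 h is one of the 3 that stand apart, and its part in the second difference was not tested.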

How the results depend on the processing

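With a 1.5-fold threshold in place of 2-fold, the number of clock genes called became 2 (APAP), 1 (AMAP) and 1 (APAP against AMAP) at 2 h, 3 (APAP) and 2 (AMAP) at 6 h, 4 for AMAP at 24 h, and 2 for each of the control steps ending or starting at 6 h. The shares of all genes past 1.5-fold were 25.2% and 9.35% at 6 h and 17.4% for AMAP at 24 h. With each gene's probe sets averaged it became 0 for APAP at 6 h, 1 for the compounds against each other at 6 h and 0 for AMAP at 24 h. Without the filter on low values it became 2 for APAP at 6 h, and with cyclic loess 1 for AMAP at 24 h. On the other probe set, Clock turned to 0.27 at 6 h (APAP against AMAP) and, at 24 h, to 0.79 in APAP and 0.26 in AMAP, and Per2 to -0.13 (APAP against AMAP at 6 h) and -0.19 (AMAP at 24 h). Without the 3 arrays that stand apart, the limma fit gave Clock 0.18 for APAP against control and 0.16 for 24 against 2 h. That fit holds APAP at 2 h only and 24 h in control only, so it cannot separate array state from later treatment. The causes were not tested. The limma fit called 0 genes at an adjusted p under 0.05 in each of 10 alternatives per contrast, left-out times or treatments included, with 374 to 902 genes at an unadjusted p under 0.05 for APAP against control and 6 to 230 for AMAP against control. Over left-out times, Clock for APAP against control ran from -1.56 to -0.60. Both slopes of Bhlhe40 kept their direction and missed the adjusted threshold in the 5 alternatives run for each, none of which left out an array. With 1 array per group, no spread between cultures was measured.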
